A study of Mus musculus with 6 samples.

Results

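Calcineurin, the calcium- and calmodulin-dependent protein phosphatase, and the transcription factors of the NFAT family were compared between the hippocampi of wild-type mice and of mice that overexpress ORAI1 in neurons. The 10 genes, chosen by name, were the calcineurin subunits Ppp3ca, Ppp3cb and Ppp3r1, the regulators Rcan1 and Rcan2, and the factors Nfatc1, Nfatc2, Nfatc3, Nfatc4 and Nfat5. They stood among 54838 genes of the count table, and each of the 10 was among the 19087 genes with enough counts to be tested. RNA came from 3 wild-type and 3 FVB/NJ-Tg(ORAI1)Ibd females aged 7 months, with 1 hippocampus library per mouse. The transgene is a human ORAI1 cDNA in the Thy1.2 cassette, which directs expression to neurons, and the transgenic mice came from a single line made by pronuclear injection. The experiment asked which transcripts differ when ORAI1 is overexpressed.

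ORAI1 forms the pore of the calcium release-activated channel, which opens when STIM proteins sense that the endoplasmic reticulum has lost calcium. Calcium that enters there can activate calcineurin, which removes phosphates from NFAT factors in the cytoplasm so that they move to the nucleus. This step acts on protein, and transcript levels do not measure it. The Rcan1 gene has an internal start that NFAT is known to drive, and its product binds and restrains calcineurin, so Rcan1 transcripts are widely used as a readout of the pathway. Neurons are among the cells richest in calcineurin.

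The 2 Rcan1 windows below are shown because the pathway readout rests on this gene. Each holds the 250 bases before a start site annotated by RefSeq on GRCm38.p6, read 5′ to 3′ on the minus strand. Capitals mark GGAAA, the core that NFAT factors bind, or TTTCC, the same core on the other strand. The distal window lies at chr16:92466170-92466419 and the internal window at chr16:92400079-92400328.
Rcan1 distal start: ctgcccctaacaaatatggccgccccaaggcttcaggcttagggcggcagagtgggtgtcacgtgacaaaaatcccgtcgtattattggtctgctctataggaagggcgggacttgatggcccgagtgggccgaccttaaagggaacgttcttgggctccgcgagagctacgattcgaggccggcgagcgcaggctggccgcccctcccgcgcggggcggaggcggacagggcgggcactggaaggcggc
Rcan1 internal start: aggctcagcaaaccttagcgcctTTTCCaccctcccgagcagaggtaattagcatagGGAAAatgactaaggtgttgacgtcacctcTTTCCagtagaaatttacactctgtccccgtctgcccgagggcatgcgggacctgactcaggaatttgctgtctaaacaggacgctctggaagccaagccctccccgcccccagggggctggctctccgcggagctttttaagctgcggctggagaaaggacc
The distal window held 0 matches and the internal window held 3, of which 1 was on the strand shown and 2 on the other. Of 32851 such windows of all genes, 55.6% held at least 1 match and 6.39% held at least 3. A match is a stretch of letters and not a shown binding site, and 0 matches says only that these letters do not occur in that window. RefSeq windows were found for 8 of the 10 genes, 13 windows in all. Of the 13 windows 4 held 3 matches (Rcan1 internal, Ppp3cb, Nfatc4 and 1 of Nfatc2), 2 held 2, 2 held 1, and 5 held 0 (Rcan1 distal, Ppp3r1, 2 of Rcan2 and 1 of Nfatc3). The deposited counts join all transcripts of a gene, so that the distal and internal starts of Rcan1 were not told apart.

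Each library held between 37414241 and 52497799 fragments counted on genes. CPM below divide each count by its library's total after TMM scaling, and FPKM are fragments per kilobase of exonic length, relative to the unscaled total. Orai1 was at 7.18, 7.16 and 8.08 CPM in the wild-type and at 313.4, 331.1 and 316.1 CPM in the transgenic libraries, which was far higher in each transgenic library. This row of the mouse annotation received fragments of the human cDNA only as far as they aligned to mouse. Thy1, which gives the cassette its promoter, was at 621.0 to 675.4 CPM in wild-type and 3572 to 4369 CPM in transgenic mice. Hippocampal neuron markers summed to 4359 to 4423 CPM in wild-type and 4492 to 4573 CPM in transgenic mice. Of these 8 markers 4 were higher and 4 lower, their median lay at -2e-04 on the log2 scale, and Slc17a7, the vesicular glutamate transporter, was the one that passed the test (0.26, adjusted p = 0.0356 with edgeR). All 12 choroid plexus markers were lower in transgenic mice, with a sum of 2409 to 4369 CPM in wild-type against 238.4 to 471.1 CPM, and the part of this difference in the values below was not tested. The sums of the lists for astrocytes, microglia, oligodendrocytes, endothelium, mural cells, meningeal fibroblasts, skeletal muscle and thalamus overlapped between genotypes, although the endothelial marker Cldn5 was higher in transgenic mice (log2 fold change 0.66, adjusted p = 0.043 with edgeR). The other endothelial markers were at 0.07 to 0.09 on the log2 scale, with overlapping groups and none past the threshold. In these bulk samples fewer cells of a type, in the mouse or only in the tissue taken, and less RNA per cell cannot be told apart. The paper's real-time PCR on other mice gave lower values for the choroid plexus markers it measured, none at p under 0.05 (Tukey's test).

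None of the 10 genes changed at an adjusted p under 0.05 (edgeR's quasi-likelihood test, Benjamini-Hochberg over 19087 genes), while 7.10% of all genes did, 3.10% higher and 4.0% lower. At an unadjusted p under 0.05, the same test passed 4 of the 10 genes, 1 higher and 3 lower, beside 27.8% of all genes. The groups did not overlap in CPM for 3 of the 10 genes, beside 34.9% of all genes. These counts among 10 genes are near their backgrounds. The log2 fold change was below 0 for 8 of the 10 genes, with a median of -0.11, and below 0 for 9871 of all 19087 genes, with a median of -0.01. With the GC trend of each library entered as an offset, 4 of the 10 genes were below 0 and their median was 0.02, as was that of all genes. DESeq2's Wald test passed 1 of the 10 genes, Rcan1, beside 13.8% of the 16122 genes to which it gave an adjusted p.

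**Figure D1:**
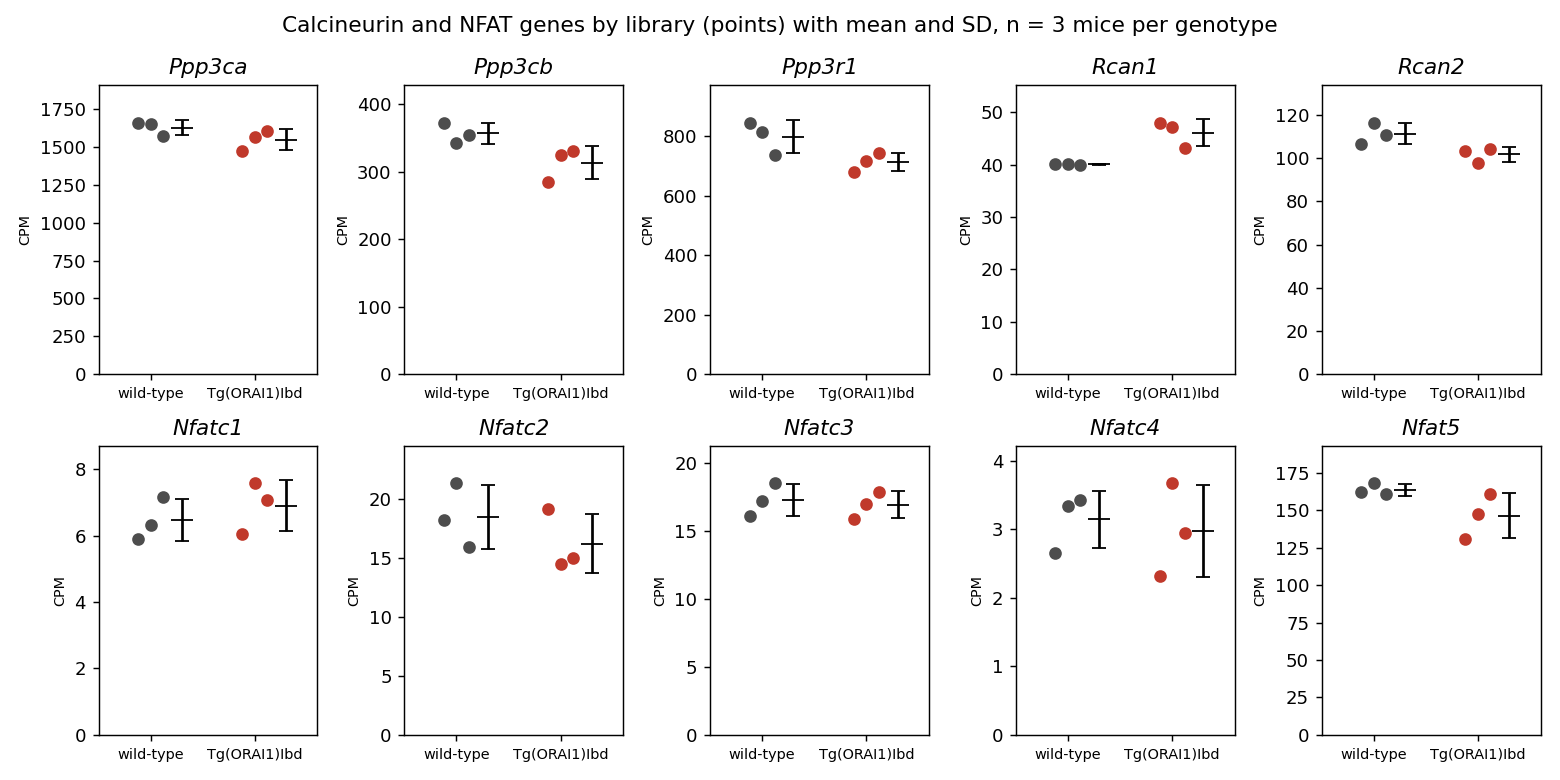
CPM (vertical axes, each starting at 0) of the 10 genes in the 3 wild-type (grey) and 3 Tg(ORAI1)Ibd (red) libraries, 1 point per mouse, with mean and SD beside them. Only Ppp3cb, Rcan1 and Rcan2 have groups that do not overlap, and Rcan1 is the one of them that is higher in transgenic mice.

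The levels per length spanned from 247.8 ± 16.4 FPKM (SD, n = 3) for Ppp3r1 to 0.542 ± 0.0749 FPKM (SD, n = 3) for Nfatc4 in wild-type mice. Ppp3r1, which encodes the calcium-binding regulatory subunit, stood 1.52-fold above the catalytic subunit gene Ppp3ca, which was at 163.3 ± 4.35 FPKM. This order rests on the annotated exonic lengths, 3228 bp for Ppp3r1 and 9981 bp for Ppp3ca. By CPM Ppp3ca was the higher, at a wild-type mean of 1629.2 beside 799.6 for Ppp3r1. Per length Ppp3ca stood 4.03-fold above the second catalytic gene, Ppp3cb, at 40.5 ± 1.62 FPKM. The regulators followed, with Rcan2 at 25.5 ± 1.17 FPKM and Rcan1 at 13.0 ± 0.0244 FPKM. Of the NFAT genes, Nfat5, which responds to osmotic stress and lacks the calcineurin-binding region of its relatives, had the highest level, 8.91 ± 0.207 FPKM, and stood 5.11-fold above the next, Nfatc2. Nfatc2 was at 1.74 ± 0.254, Nfatc3 at 1.47 ± 0.109 and Nfatc1 at 0.870 ± 0.0889 FPKM. Nfatc4, the factor best known from hippocampal neurons, had the lowest level of the 10 genes. In this order Nfatc2 and Nfatc3 were the only neighbours whose wild-type ranges overlapped, and the same held among the transgenic libraries, which kept the order.

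**Figure D2:**
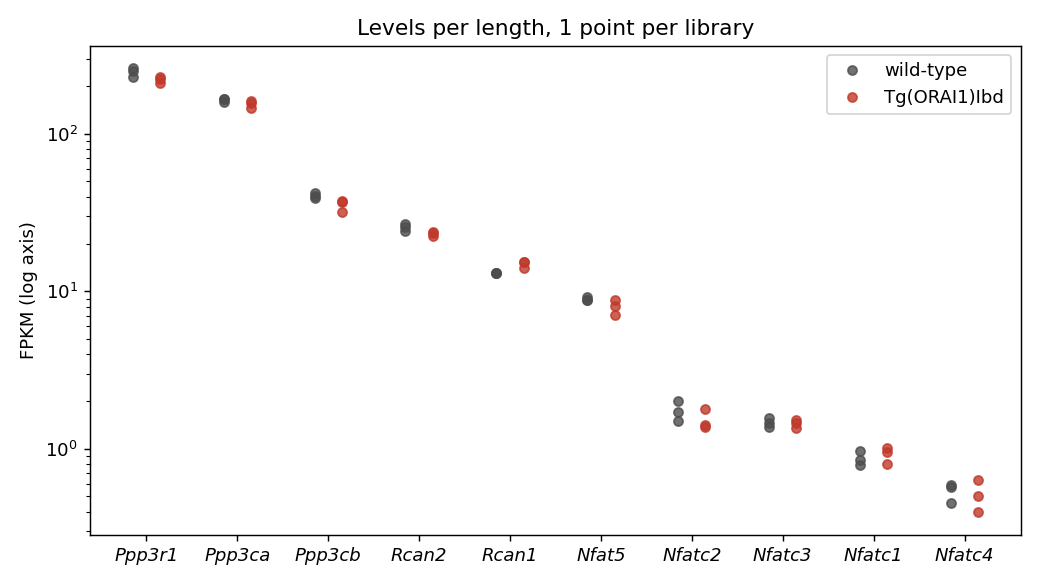
FPKM per library (vertical log axis) of the 10 genes, in the order of their wild-type mean, with wild-type in grey and Tg(ORAI1)Ibd in red. The calcineurin genes lie at the top, from 247.8 FPKM for Ppp3r1 in wild-type mice, and the calcineurin-dependent NFAT genes at the bottom, with the ranges of Nfatc2 and Nfatc3 overlapping.

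Ppp3ca (ENSMUSG00000028161, chr3:136670124-136937727, plus strand), the main catalytic subunit of calcineurin in brain, was at 1661, 1652 and 1574 CPM in wild-type and at 1472, 1564 and 1606 CPM in transgenic mice. The groups overlapped, and the log2 fold change was -0.07 (SE 0.0585, 95% confidence interval -0.21 to 0.06, adjusted p = 0.452 with edgeR). Ppp3cb (ENSMUSG00000021816, chr14:20499364-20546573, minus strand), its paralogue, was at 373.0, 343.0 and 354.9 CPM in wild-type and at 285.4, 324.4 and 331.0 CPM in transgenic mice. All transgenic values of Ppp3cb lay below all wild-type values, yet the difference did not pass the test (log2 fold change -0.19, SE 0.0673, interval -0.34 to -0.03, adjusted p = 0.123 with edgeR). Ppp3r1 (ENSMUSG00000033953, chr11:17159263-17200375, plus strand) was at 846.4, 813.9 and 738.5 CPM in wild-type and at 680.9, 717.0 and 743.1 CPM in transgenic mice. The highest transgenic library lay above the lowest wild-type one, and the log2 fold change was -0.16 (SE 0.0663, interval -0.32 to -0.01, adjusted p = 0.158 with edgeR). Ppp3r1 overlaps Wdr92, and Ppp3ca overlaps Gm42822, on the same strand, so the counting could split or drop fragments there.

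The GC content of transcripts was set beside these values, and its part in them was not tested. Genes in the same decile of GC content as Ppp3cb and Ppp3r1, the lowest decile, were at -0.20 in median log2 fold change, and those in the decile of Ppp3ca at -0.09. With the GC trend of each library entered as an offset, the log2 fold changes were 0.03 for Ppp3ca, 0.02 for Ppp3cb and 0.02 for Ppp3r1, so that the direction turned for each. Nfatc2 and Nfatc4 lay on the other side of their decile, at -0.19 and -0.08 beside a median of 0.11, and with offsets moved further from 0, to -0.27 and -0.17.

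**Figure D3:**
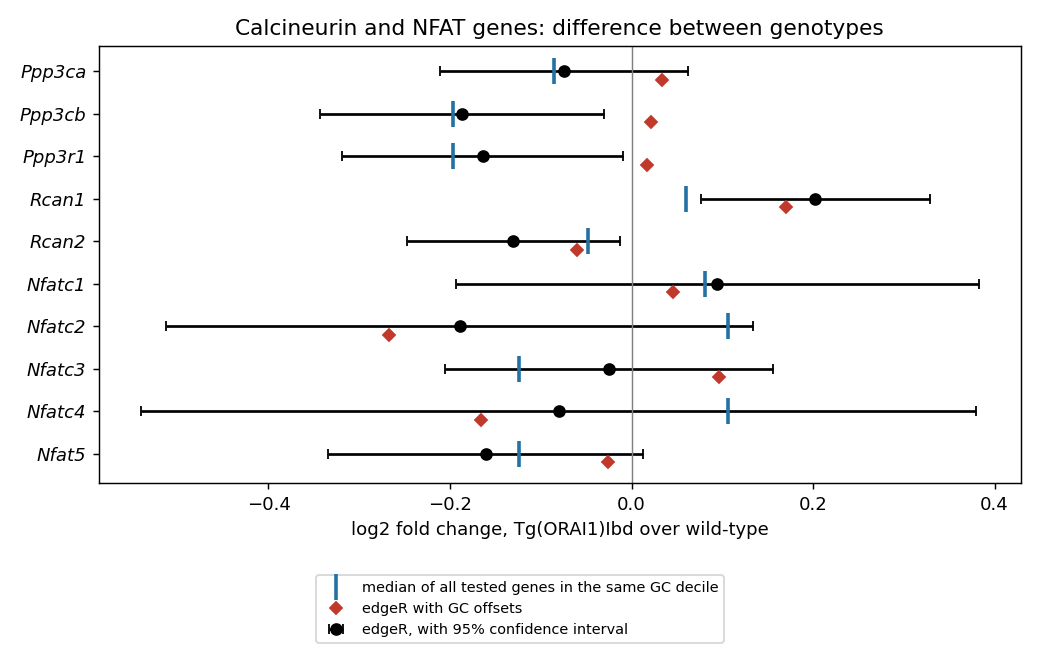
Log2 fold change of Tg(ORAI1)Ibd over wild-type (horizontal axis) for the 10 genes, with 95% confidence intervals (black), the median of all tested genes in the same decile of GC content (blue) and the value with GC offsets (red). The subunit genes Ppp3cb and Ppp3r1 sit beside the median of -0.20 of their decile and near 0 with offsets, while Rcan1 is at 0.17 with offsets, not past the threshold.

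Rcan1 (ENSMUSG00000022951, chr16:92391953-92470867, minus strand) was at 40.1, 40.1 and 39.9 CPM in wild-type and at 48.0, 47.1 and 43.1 CPM in transgenic mice. All transgenic values lay above all wild-type values, a difference of 15% (log2 fold change 0.20, SE 0.0542, interval 0.08 to 0.33). It missed the threshold with edgeR (unadjusted p = 0.0064, adjusted p = 0.0634), and 84.8% of all genes tested had a lower log2 fold change. With DESeq2's Wald test Rcan1 passed, at an adjusted p of 0.0387, and over all 18 alternatives the adjusted p ran from 0.0387 to 0.195 and the log2 fold change from 0.17 to 0.27. GC offsets gave 0.17 (adjusted p = 0.134 with edgeR), and the decile of GC content that holds Rcan1 had a median of 0.06.

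The 3 wild-type libraries lay closer together than the counting error of Rcan1. Their coefficient of variation was 0.188% on the FPKM scale, beside a counting error of 2.40% for 1510 to 2098 fragments per library, whereas the transgenic libraries had 5.39% beside 2.33%. The transgenic library 3, the lowest of its group, had an exact 95% Poisson interval of 41.0 to 45.3 CPM, which overlapped the interval of 38.4 to 41.9 CPM of wild-type library 1. The intervals of transgenic libraries 1 and 2, from 46.0 to 50 and from 44.9 to 49.3 CPM, overlapped none of the wild-type intervals. These intervals cover counting error only.

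**Figure D4:**
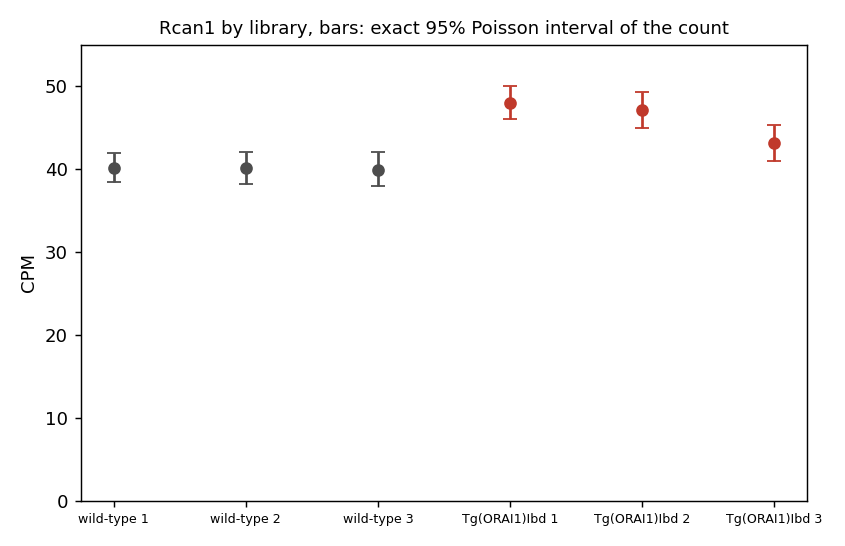
Rcan1 CPM per library (vertical axis from 0) with the exact 95% Poisson interval of its count, wild-type in grey and Tg(ORAI1)Ibd in red. The wild-type libraries sit between 39.9 and 40.1 CPM, and the transgenic libraries sit between 43.1 and 48.0 CPM, with the interval of the lowest reaching into those of the wild-type libraries.

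The genes whose log2 CPM ran most like that of Rcan1 over the 6 libraries were E2f4, a cell cycle transcription factor, with Pearson's r of 0.996, Myd88, an adaptor of Toll-like receptors, with 0.996, and Fam219b with 0.994. They were the first of 14239 candidate genes, of which 165 had an r above 0.95. The 6 points fall into the genotypes and share their libraries, so r is given as a description only.

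Rcan2 (ENSMUSG00000039601, chr17:43801351-44039516, plus strand), a relative of Rcan1 that also binds calcineurin, was at 106.7, 116.5 and 111.0 CPM in wild-type and at 103.5, 97.7 and 104.1 CPM in transgenic mice. The transgenic values lay below the wild-type values, with a log2 fold change of -0.13 that did not pass the test (SE 0.0503, interval -0.25 to -0.01, adjusted p = 0.144 with edgeR). GC offsets gave -0.06, a smaller difference in the same direction.

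Ratios within a library are free of the scaling between libraries, though not of trends with GC content, and 5 of them were compared. The ratio of Rcan1 to Rcan2 FPKM was 0.509 in wild-type and 0.641 in transgenic mice, a log2 difference of 0.33, and that of Rcan1 to the sum of Ppp3ca and Ppp3cb was 0.0637 and 0.0782, a log2 difference of 0.30. Both ratios were higher in every transgenic than in every wild-type library. The ratio of Ppp3cb to Ppp3ca was 0.248 in wild-type and 0.229 in transgenic mice, also without overlap and lower in the transgenic libraries. Each of these gave an exact permutation p of 0.1, two-sided, the smallest that 3 mice against 3 allow, and 0.167 after adjustment over the 5 ratios. For Ppp3r1 over the catalytic sum the groups overlapped (exact permutation p = 0.3), as they did for Nfatc3 over the sum of Nfatc1, Nfatc2 and Nfatc4 (exact permutation p = 0.6). With the GC trend of each library divided out, an alternative chosen after seeing the data, the log2 difference was -0.01 for Ppp3cb over Ppp3ca and 0.14 for Rcan1 over the catalytic sum, and the groups of both overlapped. That of Rcan1 over Rcan2 was 0.23 and stayed without overlap, while that of Nfatc3 over the other NFAT genes went from 0.06 to 0.25, without overlap (exact permutation p = 0.1 for each).

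None of the 5 NFAT genes had groups that did not overlap, beside 34.9% of all genes, too few genes to set them apart. Nfatc2 (ENSMUSG00000027544, chr2:168476410-168601657, minus strand), a factor first known from T cells, was at 18.2, 21.3 and 15.9 CPM in wild-type and at 19.1, 14.5 and 15.0 CPM in transgenic mice. Its log2 fold change was -0.19 (SE 0.139, adjusted p = 0.415 with edgeR), with 1 transgenic library among the wild-type values. It ran from -0.06 without wild-type replicate 2 to -0.33 without transgenic replicate 1. Nfatc3 (ENSMUSG00000031902, chr8:106058840-106130537, plus strand) was at 16.1, 17.2 and 18.5 CPM in wild-type and at 15.9, 17.0 and 17.9 CPM in transgenic mice. Of the 10 genes it had the log2 fold change closest to 0, -0.03 (interval -0.21 to 0.16, adjusted p = 0.868 with edgeR), and its sign turned with GC offsets, to 0.10. Nfatc1 (ENSMUSG00000033016), which is itself induced by NFAT in immune and bone cells, was at 5.90, 6.33 and 7.16 CPM in wild-type and at 6.05, 7.57 and 7.08 CPM in transgenic mice. Its log2 fold change was 0.09 (interval -0.19 to 0.38, adjusted p = 0.666 with edgeR), with mixed libraries, and 0.05 to 0.18 when 1 mouse was left out. Nfatc4 (ENSMUSG00000023411, chr14:55823144-55833943, plus strand) was at 2.66, 3.34 and 3.43 CPM in wild-type and at 2.32, 3.67 and 2.94 CPM in transgenic mice. It had 108 to 141 fragments per library and the widest interval, -0.54 to 0.38 around a log2 fold change of -0.08 (adjusted p = 0.829 with edgeR), and without transgenic replicate 1 the value was 0.08.

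Nfat5 (ENSMUSG00000003847, chr8:107293470-107379517, plus strand) was at 162.2, 168.0 and 160.8 CPM in wild-type and at 130.7, 147.6 and 160.9 CPM in transgenic mice. Transgenic libraries 1 and 2 lay below the wild-type values, whereas library 3 lay among them, and the log2 fold change was -0.16 (SE 0.0745, interval -0.33 to 0.01, adjusted p = 0.209 with edgeR). Without transgenic replicate 1 the value was -0.08. GC offsets gave -0.03, and offsets for gene length, which is 18378 bp for Nfat5, gave 0.01. The 5 osmoprotective targets of Nfat5 in the pathway list were all tested and 0 passed with edgeR or DESeq2, 1 at an unadjusted p under 0.05 with edgeR, Slc6a6, the taurine transporter, which was lower. Among all genes 7.10%, 13.8% and 27.8% passed these tests, so that these counts do not stand apart from the background.

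A wider list of 53 genes of the pathway was read for comparison. Of them 44 were tested, 1 rose and 2 fell, beside 3.10% of all genes called higher and 4.0% lower by the same test. The median log2 fold change was 0.01, and the 2 that fell do not stand apart from the background. The gene that rose was Orai1, the mouse counterpart of the transgene (log2 fold change 5.42, SE 0.0663, adjusted p = 3.84e-08 with edgeR). Its row received fragments of the transgene, so that its call was fixed by the design and is no result about the pathway. Orai2 and Orai3, relatives of Orai1 that form channels of the same kind, did not pass (0.19, adjusted p = 0.0653, and 0.21, adjusted p = 0.0702, with edgeR). In both the transgenic values lay above all wild-type values, beside 34.9% of all genes whose groups did not overlap. Orai2 was at 148 to 162 CPM in wild-type and 171 to 182 CPM in transgenic mice. DESeq2's Wald test passed it, at an adjusted p of 0.0218, beside 13.8% of the genes to which that test gave an adjusted p. With GC offsets Orai2 was at 0.13 and Orai3 at 0.15, neither past the threshold (adjusted p = 0.195 and 0.211 with edgeR). The calcium sensors Stim1 and Stim2 were at -0.10 and 0.05 on the log2 scale, neither past the threshold, and ran from -0.11 to -0.06 and from 0.03 to 0.10 when 1 mouse was left out. The genes that fell were Gsk3b, one of several kinases that return NFAT to its phosphorylated form (-0.27, SE 0.0461, adjusted p = 0.0254 with edgeR), and Xpo1, the nuclear export receptor (-0.33, SE 0.0528, adjusted p = 0.0212 with edgeR). Of the 9 tested genes for NFAT kinases and export, these 2 included, 5 were above 0 and 4 below, with a median of 9e-04. With GC offsets Gsk3b was at -0.17 and Xpo1 at -0.13 and both calls were lost (adjusted p = 0.106 and 0.257 with edgeR), and gene length offsets lost that of Gsk3b (-0.17, adjusted p = 0.0752 with edgeR). Both calls were also lost in 4 of the 6 fits that left out 1 mouse (wild-type replicate 1 or 2, or transgenic replicate 2 or 3), in which Gsk3b ranged from -0.27 to -0.23 and Xpo1 from -0.35 to -0.29.

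Of the remaining genes, the third catalytic subunit gene Ppp3cc had a log2 fold change of -0.05 and the third regulator Rcan3 one of -0.07, neither past the threshold. When 1 mouse was left out, Ppp3cc ran from -0.0666 (without wild-type replicate 3) to -0.0168 (without wild-type replicate 1) and Rcan3 from -0.0716 to -0.0451 (without transgenic replicate 3). Of the 10 targets of calcineurin-dependent NFAT on the list, 3 were expressed highly enough to be tested and 0 passed with edgeR, 1 at an unadjusted p under 0.05, Ptgs2, the inducible cyclooxygenase, which was lower in transgenic mice. DESeq2's Wald test passed Ptgs2 too, and counts of 0 or 1 among 3 genes do not stand apart from the 7.10%, 27.8% and 13.8% of all genes that passed these tests. Itpr1, the calcium release channel of the endoplasmic reticulum, was at 445 to 530 CPM in wild-type and 345 to 493 CPM in transgenic mice (log2 fold change -0.27, SE 0.130, adjusted p = 0.217 with edgeR). The value hung on single libraries, at -0.42 without transgenic replicate 1, where it passed (adjusted p = 0.0463 with edgeR), and at -0.14 without transgenic replicate 3, and gene length offsets gave -0.10. The 7 targets that were not tested included the cytokine genes Il2, Il4 and Tnf, which had too few fragments.

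**Figure D5:**
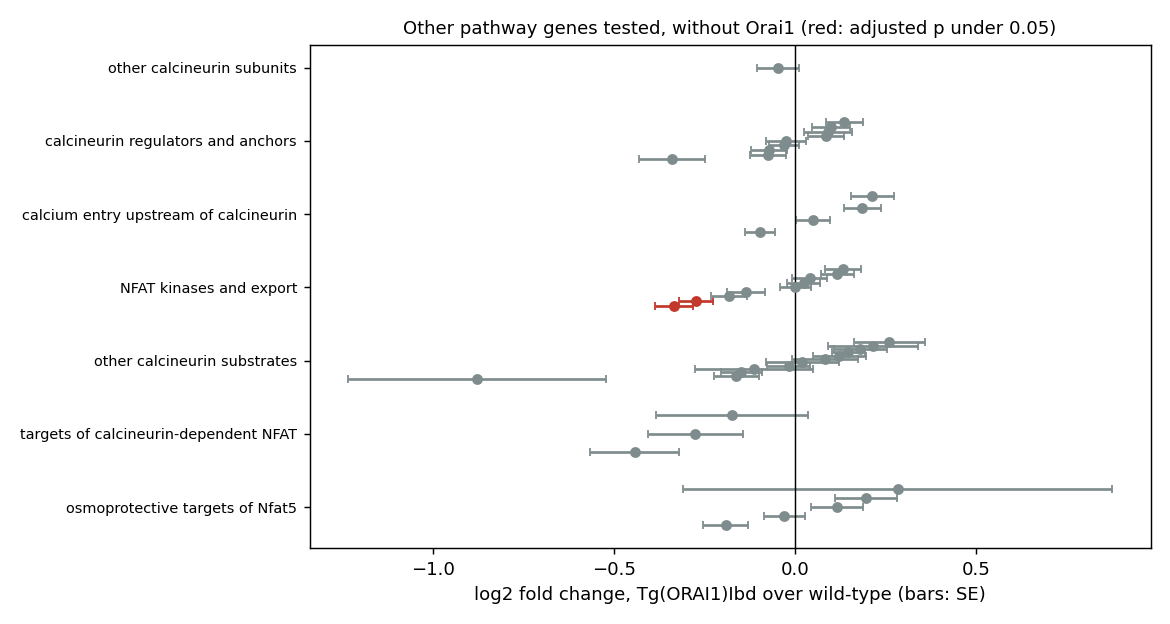
Log2 fold change of Tg(ORAI1)Ibd over wild-type (horizontal axis, bars show SE) of the pathway genes tested, by their role, without Orai1, whose value of 5.42 lies beyond the axis. Points past the threshold are red, Gsk3b at -0.27 and Xpo1 at -0.33.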

How the data were processed

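Each of the 6 libraries came from 1 hippocampus sample, and libraries were grouped by their labels. The authors filtered reads with Trimmomatic, aligned them to mm10 with STAR and deposited counts from featureCounts 1.5.0-p1, raw and stranded, on the Ensembl 95 annotation. The 10 genes and the lists were chosen with earlier results of these data known. Positions and GC content came from GENCODE M21 on GRCm38, in which 54723 of 54838 genes were found.

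Genes were kept by filterByExpr (minimum count 10), scaled by TMM and compared with edgeR 4.0.16 (quasi-likelihood test, Benjamini-Hochberg, threshold 0.05), in R 4.3.3. limma 3.58.1 (voom), DESeq2 1.42.0 (Wald test), other scalings and filters, leaving out each mouse, a replicate block, and loess offsets (span 0.5) for gene length and GC content were alternatives. Ratios were compared with scipy by exact permutation. Fits were tested on simulated data, where more of edgeR's calls, and more still of DESeq2's, were false than the threshold implies, and changed genes with few counts were often missed. Named were the 10 genes, Orai1, Thy1, every listed pathway gene past the threshold, Orai2, Orai3, Stim1, Stim2, Ppp3cc, Rcan3, Itpr1 and the 3 genes most like Rcan1. Slc6a6, Slc17a7, Cldn5, Ptgs2, the cytokine genes and the genes named for single alternatives were chosen after their values were seen. P-values of the fits set the difference between genotypes against the spread between these mice, and permutation p-values rank it among relabelings of the libraries. The paper's NOISeq test was not repeated.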

Additional observations from a re-analysis of the deposited data

How the results depend on the processing

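Over the 18 alternatives Rcan1, Rcan2, Nfatc1 and Nfatc2 kept their direction in every fit, and no gene of the 10 passed except Rcan1 with DESeq2's Wald test, where 1 was called higher. That test also called 4 pathway genes higher (Orai1, Orai2, Amph, Calm3), 5 lower (Gsk3b, Xpo1, Akap5, Csnk1a1, Ptgs2) and 2230 of all genes. Without a filter 4 pathway genes were called lower (Akap5 and Ptgs2 besides Gsk3b and Xpo1), beside 1503 of all 33581 genes (4.48%). Leaving out 1 mouse gave 77 to 1149 calls among all genes beside 1355 with all mice (77 without wild-type replicate 1, 94 without wild-type replicate 2, 192 without transgenic replicate 2 and 108 without transgenic replicate 3), and 0 to 3 pathway genes called lower. In these fits Nfatc3 ranged from -0.0596 to 0.0331, Nfatc4 from -0.236 to 0.0772, and the log2 difference of the Nfatc3 ratio from -0.0047 to 0.134, with turns of sign. The ranges of the others were -0.0932 to -0.0392 for Ppp3ca, -0.208 to -0.123 for Ppp3cb, -0.213 to -0.107 for Ppp3r1, 0.172 to 0.269 for Rcan1, -0.145 to -0.0771 for Rcan2, 0.0455 to 0.184 for Nfatc1, -0.327 to -0.0586 for Nfatc2 and -0.214 to -0.0847 for Nfat5. Gene length offsets gave 778 calls, 1 pathway gene lower, and 0.033 for Ppp3ca, 0.0992 for Nfatc3, 0.0103 for Nfat5 and 0.017 for Stim1, each turned. GC offsets gave 407 calls, 0 pathway genes lower, and 0.0335 for Ppp3ca, 0.0219 for Ppp3cb, 0.0165 for Ppp3r1, 0.0965 for Nfatc3 and 0.0239 for Ppp3cc, each turned. The causes were not tested. With 3 mice per genotype an exact permutation p cannot go below 0.1, and Nfatc4 had at most 141 fragments.

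The replicate numbers do not show a pairing: same-numbered mice correlated at 0.399, -0.357 and 0.388 in their deviations from the group means. A replicate block gave 738 calls, 2 pathway genes higher, 4 lower and Rcan1 at 0.20 (adjusted p = 0.0949 with edgeR). For the ratios the block could not change the value, because the mean over same-numbered mice equals the difference of the group means. Length offsets with the block gave 569 calls, 1 pathway gene lower (Ptgs2, with Gsk3b at an adjusted p of 0.11 and Xpo1 at 0.0558 with edgeR), and 0.0327 for Ppp3ca, 0.101 for Nfatc3, 0.0067 for Nfat5 and 0.0167 for Stim1, and GC offsets with the block gave 462 calls, 0 pathway genes lower, and 0.0339 for Ppp3ca, 0.0221 for Ppp3cb, 0.0178 for Ppp3r1, 0.0981 for Nfatc3 and 0.0243 for Ppp3cc.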
